A study of Mus musculus with 13 samples.

Results

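Solute carriers and drug pumps of the kidney proximal tubule are described here, in RNA tagged in 13 mouse kidneys. The set held 43 genes, chosen as a list of symbols for carriers of sugars, amino acids, peptides, carboxylates, sulfate, organic anions and cations, vitamins, fatty acids and water. All 43 were found among the 35013 gene symbols of the count table, and all 43 passed the filter on low counts. The libraries came from mice labelled female, in 3 groups, 4 labelled Spns1 KO, 5 WT and 4 FeO. Every mouse carried Megalin3'Cre-Ert, a tamoxifen-inducible Cre driven by the gene of the proximal tubule receptor megalin, and 1 allele of Uprt, the uracil phosphoribosyltransferase that lets a cell build injected 4-thiouracil into new RNA. Mice labelled Spns1 KO were Spns1 flox/flox, lacking the lysosomal transporter Spns1 in cells where the Cre had acted. WT littermates and FeO mice had a single floxed Spns1 allele by the study's methods, although the labels call them Spns1 WT. FeO mice received 12 mg of iron daily for 3 days and were euthanized 1 week later. Ages were not given in the sources used here, and nothing states that the libraries of a group came from separate mice, so p-values measure the spread between these libraries.

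Cells of the proximal tubule take back most filtered glucose, amino acids, phosphate and organic acids, using sodium-coupled carriers of the brush border and facilitative carriers of the basolateral membrane. They also secrete drugs, toxins and urate by taking them up from blood through organic anion and cation transporters and pumping them into the lumen. The carriers are laid out along the tubule. High-capacity, low-affinity forms sit in the early convoluted part, and high-affinity forms sit in the late straight part, where they recover what remains.

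Spns1 itself measured 39.0, 44.5, 36.6 and 59.0 CPM (counts scaled to a common library size with TMM factors) in Spns1 KO 1 to 4, as labelled. Values were 57.2, 61.4, 57.6, 39.2 and 62.9 CPM in WT 1 to 5, whereas FeO 1 to 4 had 58.7, 56.7, 39.0 and 45.9 CPM. The groups overlapped, at -0.31 on the log2 scale (standard error, SE, 0.18, edgeR adjusted p = 0.225) in the libraries labelled Spns1 KO. The floxed allele loses exon 3, whereas the count covers every exon of the gene, so these values do not check the labels. Directions given below for Spns1 KO are those of the libraries so labelled.

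Total counts were 23068023 to 71296474 per library. Markers of the proximal tubule were abundant in every library. Their summed level over 8 genes was 6878 to 7484 CPM in Spns1 KO, while WT had 3432 to 4831 CPM and FeO 1940 to 5210 CPM, and 6 of the 8 were upregulated in Spns1 KO against 1 in FeO. Markers of other cells were also present, and none was at 0. The summed collecting duct level over 6 genes was 271 to 485 CPM in WT and 259 to 399 CPM in Spns1 KO. In FeO it was 441 to 1101 CPM, where 5 of 6 were upregulated, against 2 in Spns1 KO. Immune sums were 183 to 231 CPM in Spns1 KO, 76.7 to 96.3 in WT and 111 to 262 in FeO. Fibroblast sums were 85.1 to 126, 47.9 to 77.6 and 40.4 to 97.1 CPM in that order. The podocyte, endothelial, thick ascending limb and distal convoluted tubule sums of Spns1 KO overlapped WT. In FeO, 3 of 5 podocyte, 4 of 6 immune, 2 of 4 thick ascending limb, 1 of 5 endothelial, 0 of 4 distal convoluted tubule and 0 of 4 fibroblast markers were upregulated, against 2, 1, 1, 1, 1 and 2 in Spns1 KO. A list of 7 kidney genes with sex-biased levels summed to 4950.5 to 6091 CPM in Spns1 KO, 1247 to 1844 CPM in WT and 1285, 1579, 3979 and 7405 CPM in FeO 1 to 4, with 3 and 4 of the 7 upregulated. That list was not split by the sex in which each gene is higher, so the sum has no direction. Kap alone averaged 4694 CPM in Spns1 KO, 943 CPM in WT and 2707 CPM in FeO. Those upregulated were Kap, Cyp4a12a and Prlr in Spns1 KO, at log2 fold changes of 2.32, 3.53 and 1.21. In FeO they were Kap, Cyp4a12a, Cyp7b1 and Acsm3. Of Y-linked genes, Ddx3y had 1 to 16 and Eif2s3y 0 to 9 counts per library, while Kdm5d had 141 to 665 and Uty 7 to 119. Of the markers of other cells, Kdr was called lower in FeO, and Trpm6 and Scnn1g in Spns1 KO. Beside the marker and sex-biased lists, 14.0% of all genes tested were called higher in Spns1 KO and 22.4% in FeO. The part of the sex-biased genes, and that of the cell types, in the values below was not tested. FeO 1 had the lowest proximal tubule sum and the highest collecting duct sum of all libraries. In these captured RNA pools, fewer cells of a type and less RNA per cell cannot be told apart.

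Most of the carriers were higher in the libraries labelled Spns1 KO than in WT, and 6 of the 8 genes typical of the early tubule were also higher there than in FeO. Against WT, 24 of the 43 genes were upregulated in Spns1 KO and 0 were downregulated, where 14.0% and 7.55% of the 16468 genes tested were called in those directions. Calls needed an adjusted p under 0.05 together with a log2 fold change above 0.5 or below -0.5. The median log2 fold change was 0.86 over the 43 genes and -0.05 over all genes tested, and 41 of the 43 were above 0. In FeO, 12 genes were upregulated and 3 downregulated, where 22.4% and 19.7% of all genes were called. The median there was 0.24 against -0.01 over all genes. In the direct comparison of Spns1 KO with FeO, 14 genes were higher in Spns1 KO and 0 were lower, where 6.76% and 8.10% of all genes were called. The same 5 WT libraries serve both models, so their values below stand side by side as separate comparisons. The 43 genes divide into 11 upregulated in both models, 12 upregulated in Spns1 KO alone, 1 in FeO alone, 2 downregulated in FeO alone, 1 called in opposite directions and 16 called in neither. The matching division of all genes tested was not counted, so these numbers describe the list alone.

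**Figure D1:**
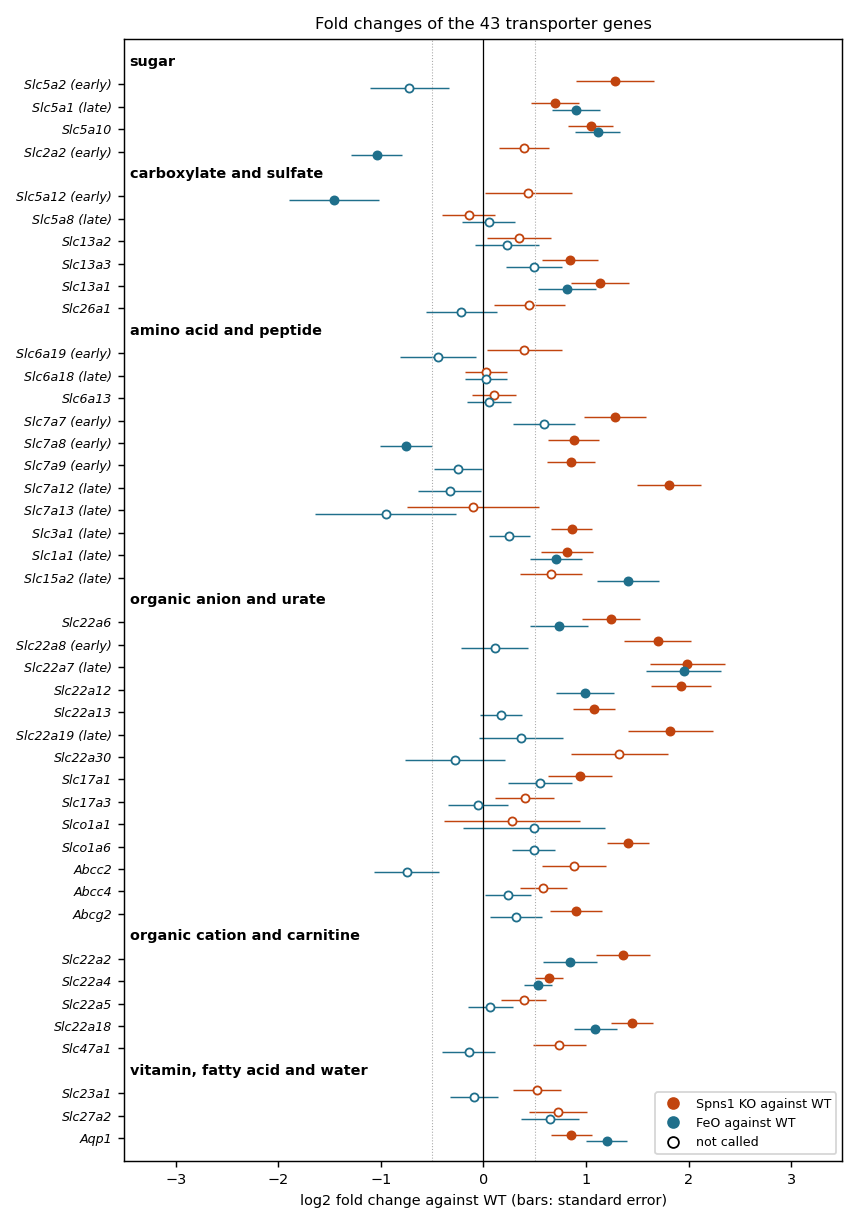
Log2 fold change against WT of each of the 43 genes, in Spns1 KO (orange) and in FeO (blue), grouped by what the carrier moves, with bars of 1 standard error, filled points for called genes and dotted lines at a log2 fold change of 0.5 in either direction. Most orange points lie right of 0 and 24 are filled, whereas the blue points spread from -1.46 for Slc5a12 to 1.95 for Slc22a7.

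Of the 4 sugar carriers, 3 were upregulated in Spns1 KO, and FeO had 2 upregulated and 1 downregulated. Over all genes tested, 14.0% were called higher in Spns1 KO, and 22.4% higher and 19.7% lower in FeO. Slc5a2, the sodium-glucose cotransporter of the early tubule (GRCm38 chromosome 7 from 128265657 to 128272430), measured 280, 285, 241 and 376 CPM in Spns1 KO 1 to 4. It measured 172, 154, 102, 77.5 and 102 CPM in WT 1 to 5, whereas FeO 1 to 4 had 16.3, 91.9, 85.04 and 102 CPM. Every library labelled Spns1 KO lay above every WT and FeO library, while FeO overlapped WT. The log2 fold change came to 1.28 in Spns1 KO (SE 0.38, edgeR adjusted p = 0.0251) and -0.72 in FeO (SE 0.39, adjusted p = 0.137), and Spns1 KO exceeded FeO by 2.00 (SE 0.42, adjusted p = 0.00816). The call against WT was lost without Spns1 KO 1, Spns1 KO 2, WT 3 or WT 4, under a replicate block and with a length and GC trend removed.

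Slc5a1, the high-affinity glucose transporter of the late tubule (chromosome 5 from 33104219 to 33162870), measured 73.0, 58.5, 70.8 and 35.9 CPM in Spns1 KO. WT had 31.2, 32.6, 32.9, 52.3 and 33.9 CPM, and FeO had 82.1, 54.1, 87.6 and 49.4 CPM. The gene was called in both models, with log2 fold changes of 0.70 (SE 0.23, adjusted p = 0.0406) and 0.90 (SE 0.23, adjusted p = 0.00661), although WT 4 lay inside both ranges. The Spns1 KO call was lost when any 1 of 7 libraries was left out, whereas the FeO call held in every fit. Slc5a10, a mannose and fructose cotransporter (chromosome 11 from 61672781 to 61720826), measured 115, 106, 118 and 77.0 CPM in Spns1 KO, 62.8, 59.3, 43.3, 38.8 and 47.9 CPM in WT, next to 104, 132, 138 and 62.9 CPM in FeO. It rose in both models, by 1.05 and 1.11 on the log2 scale (SE 0.22 and 0.22, adjusted p = 0.00433 and 0.00136). The libraries labelled Spns1 KO lay above WT, and FeO 4 lay level with WT 1. Slc2a2, the facilitative carrier through which glucose leaves the cell on the blood side (chromosome 3 from 28697903 to 28731359), measured 286, 232, 338 and 208 CPM in Spns1 KO and 201, 191, 189, 269 and 164 CPM in WT. In FeO it measured 63.5, 106, 153 and 71.8 CPM, below every WT library. It was downregulated in FeO by a log2 fold change of -1.04 (SE 0.25, adjusted p = 0.0042), and its value of 0.39 in Spns1 KO was not past the limits (adjusted p = 0.254).

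Carriers of monocarboxylates, dicarboxylates and sulfate numbered 6. Spns1 KO had 2 of them upregulated, where 14.0% of all genes were called higher. FeO had 1 upregulated and 1 downregulated, where 22.4% and 19.7% of all genes were called. Slc5a12, the low-affinity lactate transporter of the early tubule (chromosome 2 from 110597298 to 110647779), measured 34.1, 155, 136 and 69.97 CPM in FeO 1 to 4. WT 1 to 5 measured 211, 194, 266, 527 and 158 CPM, and Spns1 KO 1 to 4 measured 504, 183, 391 and 393 CPM. No FeO library reached the WT range, although FeO 2 came within a few CPM of WT 5. Its log2 fold change was -1.46 in FeO (SE 0.44, adjusted p = 0.015) and 0.44 in Spns1 KO (SE 0.42, adjusted p = 0.47). Slc5a8, the high-affinity lactate transporter of the late tubule, measured 221 ± 36.7 CPM in Spns1 KO (SD, n = 4), 244 ± 58.6 in WT (SD, n = 5) and 253 ± 101 in FeO (SD, n = 4), with log2 fold changes of -0.14 and 0.05. The sodium-sulfate cotransporter Slc13a1 was upregulated in both models, by 1.14 (Spns1 KO) and 0.82 (FeO). Slc13a3, which takes up dicarboxylates from blood, was upregulated in Spns1 KO by 0.84, with 0.49 in FeO. The luminal citrate transporter Slc13a2 and the sulfate exchanger Slc26a1 passed no limit, with log2 fold changes of 0.35 and 0.45 in Spns1 KO, against 0.23 and -0.22 for FeO.

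Carriers of amino acids and peptides numbered 11. Of these, 6 were upregulated in Spns1 KO and 0 downregulated, where 14.0% and 7.55% of all genes were called. In FeO, 2 were upregulated and 1 downregulated, where 22.4% and 19.7% of all genes were called. Slc7a8, a light chain of the exchangers for neutral amino acids on the blood side (chromosome 14 from 54722209 to 54781946), was the single gene of the 43 called in opposite directions. It measured 364, 449, 369 and 613 CPM in Spns1 KO, 247, 256, 211, 161 and 343 CPM in WT, next to 96.9, 141, 210 and 131 CPM in FeO. Spns1 KO lay above WT throughout, and 3 of the 4 FeO libraries lay below the lowest WT library. Log2 fold changes came to 0.88 and -0.75 (SE 0.25 and 0.25, adjusted p = 0.0198 and 0.0257), and Spns1 KO exceeded FeO by 1.63 (SE 0.27, adjusted p = 0.00324). The FeO call was lost without FeO 1, FeO 2, FeO 4 or WT 5, and the Spns1 KO call without WT 3, whereas the difference between the models held in every fit.

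Slc7a12, a transporter of neutral amino acids (chromosome 3 from 14480697 to 14505830), had the highest log2 fold change of Spns1 KO over FeO among the 43 genes. Spns1 KO 1 to 4 measured 160, 107, 87.0 and 253 CPM, WT 1 to 5 measured 44.4, 42.5, 54.6, 45.0 and 30.2 CPM, and FeO 1 to 4 measured 24.4, 21.1, 45.8 and 46.7 CPM. All libraries labelled Spns1 KO stood above all others, and FeO shared the WT range in part. The log2 fold change was 1.81 in Spns1 KO (SE 0.31, adjusted p = 0.00117) and -0.33 in FeO (SE 0.31, adjusted p = 0.392).

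The cystine and dibasic amino acid transporter is built of a light chain, Slc7a9, and a heavy chain, Slc3a1, whose defects cause cystinuria. Slc7a9 (chromosome 7 from 35448796 to 35466036) measured 132, 112, 141 and 106 CPM in Spns1 KO, 68.5, 67.5, 72.1, 80.8 and 50.2 CPM in WT, next to 33.4, 85.7, 67.8 and 41.7 CPM in FeO. Slc3a1 (chromosome 17 from 85028376 to 85064236) measured 357, 269, 317 and 225 CPM in Spns1 KO, 174, 166, 176, 162 and 127 CPM in WT, next to 149, 204, 270 and 144 CPM in FeO. Both chains were upregulated in Spns1 KO by the same 0.86 on the log2 scale (SE 0.23 and 0.20, adjusted p = 0.0168 and 0.00781), with no overlap with WT. The Slc7a9 call was lost without Spns1 KO 1 or 3, under the block and with the trend removed, whereas that of Slc3a1 held in every fit. Neither was called in FeO, at -0.25 and 0.25.

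Slc15a2, the high-affinity carrier of di- and tripeptides in the late tubule (chromosome 16 from 36750177 to 36784962), was the single gene upregulated in FeO but not called in Spns1 KO. FeO 1 to 4 measured 105, 191, 156 and 175 CPM, above every WT library at 58.4, 46.3, 89.9, 78.3 and 22.3 CPM. Spns1 KO measured 117, 85.4, 81.0 and 89.5 CPM, which overlapped WT. Its log2 fold change was 1.41 in FeO (SE 0.30, adjusted p = 0.00211) and 0.66 in Spns1 KO (SE 0.30, adjusted p = 0.123), and the difference between the models, -0.75, did not pass (SE 0.32, adjusted p = 0.117). Slc1a1, the late-segment glutamate and aspartate carrier, was upregulated by 0.81 (Spns1 KO) and 0.71 (FeO). Slc7a7, the basolateral light chain that exports dibasic amino acids, rose by 1.28 in Spns1 KO, with 0.59 in FeO.

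The main brush border carriers of neutral amino acids were not called in either model. Slc6a19, the early form (chromosome 13 from 73679745 to 73704865), measured 473, 378, 427 and 263 CPM in Spns1 KO, 306, 294, 263, 419 and 179 CPM in WT, next to 94.4, 427, 221 and 117 CPM in FeO. FeO spread over more than the WT range, with FeO 1 and FeO 4 below it and FeO 2 above it. Slc6a18, the late form (chromosome 13 from 73661752 to 73678023), lies 1721 bases from its neighbour Slc6a19 and measured 907 to 1137 CPM in Spns1 KO, 717 to 1288 CPM in WT and 734 to 1241 CPM in FeO. The 3 groups overlapped, with log2 fold changes of 0.03 and 0.03 (SE 0.20 and 0.20) whose signs turned when libraries were scaled by their totals alone. Slc7a13, a late-segment light chain that is typical of male mice, had a mean of 33.2 counts per library and measured 1.27, 1.14, 1.24 and 0.495 CPM in Spns1 KO, 2.45, 1.79, 0.315, 0.848 and 0.0772 CPM in WT, next to 0.328, 0.26, 0.631 and 1.09 CPM in FeO. It ranged from 2 to 90 counts per library, WT spanned both other groups, and no difference was called. Slc6a13, a basolateral carrier of GABA, had log2 fold changes of 0.11 and 0.06.

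**Figure D2:**
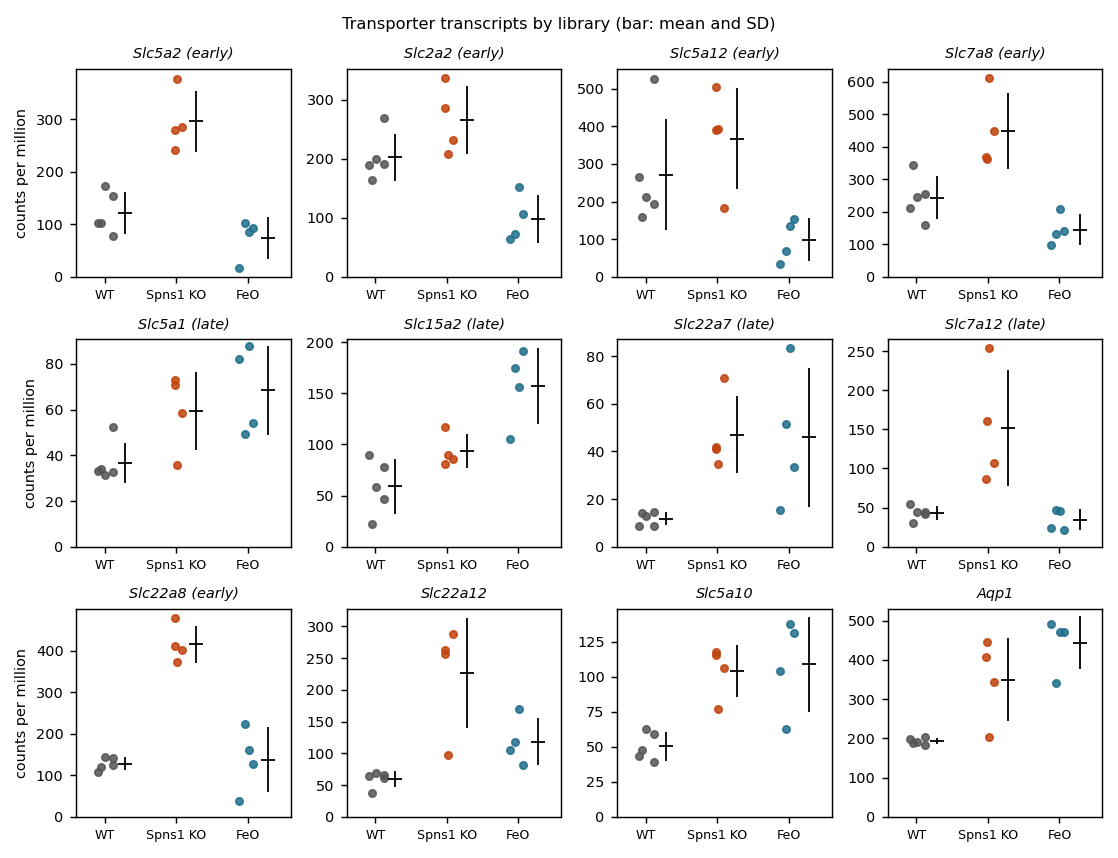
CPM of 12 transporter genes in each library (points) of WT (grey, n = 5), Spns1 KO (orange, n = 4) and FeO (blue, n = 4), with the mean and SD beside the points and every vertical axis starting at 0. Slc5a2, Slc7a12 and Slc22a8 stand apart in Spns1 KO, Slc2a2 and Slc5a12 are lowest in FeO, and Slc5a10 and Aqp1 are raised in both models.

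Organic anion and urate transporters formed the largest group, with 14 genes. In Spns1 KO 9 of these were upregulated and in FeO 3, and 0 were downregulated in either model. Of all genes tested, 14.0% were called higher in Spns1 KO and 22.4% in FeO, so the FeO count was near that share. Those called lower were 7.55% and 19.7%. Their median log2 fold change was 1.16 for Spns1 KO and 0.34 for FeO. Slc22a8, the basolateral organic anion transporter OAT3 (chromosome 19 from 8591254 to 8611835), measured 478, 400.5, 410.2 and 373 CPM in Spns1 KO, 145, 142, 107, 124 and 121 CPM in WT, next to 38.5, 128, 161 and 224 CPM in FeO. The libraries labelled Spns1 KO lay far above all others, and FeO straddled WT. The log2 fold change came to 1.70 in Spns1 KO (SE 0.33, adjusted p = 0.00238) and 0.11 in FeO (SE 0.32, adjusted p = 0.796), and the models differed by 1.59 (SE 0.35, adjusted p = 0.0102). Slc22a6, encoding the related transporter OAT1, lies 6203 bases from Slc22a8 and was upregulated in both models, by 1.24 (Spns1 KO) and 0.74 (FeO). The Slc22a6 call in FeO was lost without Spns1 KO 3, WT 2, WT 3, WT 5, FeO 2 or FeO 3. For Slc22a6 the difference between the models was 0.50 (adjusted p = 0.257).

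Slc22a7, the late-segment transporter OAT2 (chromosome 17 from 46432183 to 46438457), had the highest log2 fold change of the 43 genes in both models. It measured 41.8, 70.8, 40.9 and 34.7 CPM in Spns1 KO, 12.99, 14.6, 8.91, 8.80 and 14.0 CPM in WT, next to 15.3, 33.4, 83.3 and 51.6 CPM in FeO. Both models lay above WT, and FeO 1 lay just over the highest WT library. Log2 fold changes came to 1.99 and 1.95 (SE 0.36 and 0.36, adjusted p = 0.00179 and 0.000973). Slc22a12, the urate transporter of the brush border (chromosome 19 from 6535845 to 6543032), measured 257, 287, 263 and 97.2 CPM in Spns1 KO, 68.9, 60.9, 64.3, 65.3 and 37.8 CPM in WT, next to 105, 80.9, 170 and 117 CPM in FeO. It was upregulated by 1.93 (Spns1 KO) and 0.99 (FeO) (SE 0.29 and 0.29, adjusted p = 0.000597 and 0.0117), with no overlap with WT. The FeO call was lost without FeO 3. Its excess of Spns1 KO over FeO, 0.94 (adjusted p = 0.0493), was lost in 10 of 13 fits with 1 library omitted, among them those without Spns1 KO 1, 2 or 3 and without FeO 1, 2 or 4.

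Slc22a19, an organic anion transporter of the late tubule (chromosome 19 from 7673061 to 7711310), measured 65.5, 75.3, 50.2 and 45.2 CPM in Spns1 KO, 20.8, 19.2, 15.8, 15.2 and 12.4 CPM in WT, next to 7.38, 8.89, 21.3 and 48.5 CPM in FeO. Spns1 KO stood above WT, whereas 2 FeO libraries lay below the WT range and 2 above it. The log2 fold change was 1.82 in Spns1 KO (SE 0.41, adjusted p = 0.00648) and 0.36 in FeO (SE 0.41, adjusted p = 0.482). Slc22a30 (chromosome 19 from 8335371 to 8405111) was low throughout, at 14.6, 7.79, 5.01 and 8.26 CPM in Spns1 KO, 3.65, 3.27, 2.49, 7.17 and 1.27 CPM in WT, next to 1.48, 2.21, 6.31 and 1.84 CPM in FeO. Its difference between the models, 1.60 (adjusted p = 0.047), was called, but 42.9% of its 31-base words also occur in other genes of its family, and the call was lost without any 1 of 9 libraries. Counts of Slc22a13 and Slc22a5, which share 41.5% and 37.8% of their words with other genes, and of Slco1a6 with 13.5%, are uncertain for the same reason.

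Slc22a13, which carries urate and nicotinate, and Slco1a6, an organic anion-transporting polypeptide, were upregulated in Spns1 KO by 1.08 and 1.41, with 0.17 and 0.49 in FeO. Slc17a1, an anion and urate exporter of the brush border, rose by 0.94 in Spns1 KO, and its relative Slc17a3 passed no limit at 0.40. Of the pumps that push drugs and conjugates into the lumen, Abcg2 rose by 0.91 in Spns1 KO. Abcc2 (chromosome 19 from 43782192 to 43840740) measured 1409.9, 2254, 1577 and 865 CPM in Spns1 KO, 792, 700.2, 765, 1343 and 536 CPM in WT, next to 299.9, 661, 602 and 408 CPM in FeO. WT overlapped both models, and Abcc2 was not called against WT in either, at 0.88 (adjusted p = 0.0517) and -0.75 (adjusted p = 0.066), yet every library labelled Spns1 KO exceeded every FeO library, by 1.63 on the log2 scale (SE 0.34, adjusted p = 0.00813). Abcc4 had log2 fold changes of 0.58 and 0.24. Slco1a1, another carrier typical of male mice, averaged 9.77 counts per library, and its log2 fold changes of 0.28 and 0.49 (SE 0.66 and 0.69) were not called.

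Promoter sequence is given for a few of these genes, since HNF4, one of several regulators of these cells, is known to act at many promoters of this tubule. Shown are Slc3a1 as the holder of the longest match and Slc2a2 as a gene downregulated in FeO. RefSeq windows of the 250 bases before a start site (GRCm38.p6) matched 34 of the 43 genes. They were searched on both strands for CAAAGT and CAAAGTCCA, half-site and longer site of HNF4, the longer containing the shorter. CAAAGT occurred in 10 of the 34 (29.4%) and in 14.1% of 27025 genes, and CAAAGTCCA in 1 (2.94%) and in 0.451% of genes. Slc22a12, upregulated in FeO, was also among the 10, whereas Slc5a12 and Slc7a8, downregulated there, were not. Genes without a window were not searched, and a link between matches and changes was not tested. A match is a description of letters and not of a bound site. Capitals mark the matches in the sequences, written 5′ to 3′ on the coding strand. The windows are chr17:85028097-85028346 for Slc3a1, with a match starting 39 bases before the start, and chr3:28697653-28697902 for Slc2a2, with a match on the opposite strand at the far end.
Slc3a1: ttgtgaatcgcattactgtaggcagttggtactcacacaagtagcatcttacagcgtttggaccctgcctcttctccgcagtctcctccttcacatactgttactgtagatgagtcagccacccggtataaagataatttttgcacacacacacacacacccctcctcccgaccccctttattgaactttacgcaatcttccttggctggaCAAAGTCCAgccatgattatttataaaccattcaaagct
Slc2a2: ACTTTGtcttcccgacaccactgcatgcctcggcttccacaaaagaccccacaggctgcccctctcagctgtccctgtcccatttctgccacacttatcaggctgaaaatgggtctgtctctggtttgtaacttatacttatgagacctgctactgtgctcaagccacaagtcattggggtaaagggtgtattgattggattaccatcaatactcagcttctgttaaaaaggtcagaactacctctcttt
Slc3a1 alone of the 34 held the longer site. Hnf4a was not called, at -0.02 for Spns1 KO and -0.54 for FeO on the log2 scale.

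Carriers of organic cations and carnitine numbered 5, and the same 3 were upregulated in each model. Of all genes, 14.0% were called higher in Spns1 KO and 22.4% in FeO. Slc22a18, an organic cation transporter-like protein (chromosome 7 from 143473736 to 143499334), measured 101, 90.1, 99.6 and 67.8 CPM in Spns1 KO, 34.3, 37.1, 27.2, 29.6 and 36.1 CPM in WT, next to 41.4, 71.2, 99.0 and 68.2 CPM in FeO. WT lay below both models. Log2 fold changes came to 1.45 and 1.09 (SE 0.21 and 0.21, adjusted p = 0.000505 and 0.00106). Slc22a2, the basolateral cation transporter OCT2, rose by 1.36 (Spns1 KO) and 0.84 (FeO), and Slc22a4, a carrier of ergothioneine, by 0.64 and 0.53. In FeO the Slc22a2 call was lost without FeO 3 and the Slc22a4 call without FeO 2. Removing the length and GC trend ended both FeO calls and the Slc22a4 call in Spns1 KO, the block ended that of Slc22a2 in FeO, and library totals alone that of Slc22a4 in FeO. Slc22a5, the carnitine transporter, was not called, at 0.39 and 0.07. Slc47a1, the luminal exporter MATE1, was not called against WT, at 0.74 in Spns1 KO (adjusted p = 0.0503) and -0.14 in FeO, but was higher in Spns1 KO than in FeO by 0.88 (adjusted p = 0.043), a call lost without any 1 of 9 libraries.

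Aqp1, the water channel of the proximal tubule (chromosome 6 from 55336432 to 55348555), was upregulated in both models. It measured 446, 343, 407 and 204 CPM in Spns1 KO and 190, 184, 199, 204 and 188 CPM in WT, next to 491, 472, 472 and 342 CPM in FeO. All FeO libraries lay above WT, while Spns1 KO 4 lay level with WT 4. Its log2 fold changes were 0.86 and 1.20 (SE 0.20 and 0.20, adjusted p = 0.00754 and 0.000617). The vitamin C transporter Slc23a1 and the fatty acid transporter Slc27a2 were not called, with 0.52 and 0.73 in Spns1 KO, against -0.09 and 0.65 for FeO. Per kilobase of transcript, Slc27a2 was nevertheless the most abundant of the 43 in WT, at 314 ± 36.5 CPM per kilobase (SD, n = 5), ahead of Slc6a18 at 235 ± 50.1 and Abcc2 at 103 ± 38.0.

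Early and late segment genes were then compared as groups, from lists of 8 and 10 genes set from knowledge of the rodent nephron. The lists were also chosen with earlier results of these data known. The counts, index and pair ratios of segments are therefore not independent of these data. The other 25 genes were assigned to no segment. Of the early genes, 5 of 8 were upregulated in Spns1 KO, whereas in FeO 0 were upregulated and 3, Slc5a12, Slc2a2 and Slc7a8, were downregulated, where 22.4% and 19.7% of all genes were called in those directions. Of the late genes, 6 of 10 were upregulated in Spns1 KO, next to 4 of 10, Slc5a1, Slc1a1, Slc15a2 and Slc22a7, in FeO, with 0 downregulated in either. These counts rest on few genes. The early genes had a median log2 fold change of 0.87 for Spns1 KO and -0.58 for FeO, and that of the late genes 0.76 and 0.31. The 3 FeO decreases among the 43 genes were early genes at this setting, but Slc7a8 was not called under a replicate block or with the length and GC trend removed, and Abcc2, of no segment, was called lower under DESeq2, library totals alone and the block. In the direct comparison, 6 of the 8 early genes and 2 of the 10 late genes, Slc7a12 and Slc22a19, were higher in Spns1 KO. The Slc22a19 difference was lost without Spns1 KO 1, Spns1 KO 2, FeO 1, FeO 2 or FeO 3, under the block and when only those groups were fitted, and FeO 4 lay inside the Spns1 KO range. Among the genes with no segment, 13 of 25 were upregulated in Spns1 KO, next to 8 of 25 in FeO. Over all genes, 14.0% were called higher than WT in Spns1 KO and 22.4% in FeO. The direct comparison called 6.76% of all genes higher in Spns1 KO.

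A late minus early index, the mean log2 CPM of the 10 late genes less that of the 8 early genes within a library, was -1.41, -1.29, -1.57 and -1.58 in Spns1 KO 1 to 4. It was -1.35, -1.34, -1.33, -1.51 and -1.70 in WT 1 to 5, and 0.28, -1.20, -0.38 and -0.32 in FeO 1 to 4. Spns1 KO overlapped WT, and every FeO library lay above every WT library, FeO 2 by the least. Group means were -1.46 ± 0.14 (SD, n = 4), -1.45 ± 0.16 (SD, n = 5) and -0.40 ± 0.61 (SD, n = 4), so the index of Spns1 KO differed from WT by -0.02 and that of FeO by 1.04. Without FeO 1 the FeO difference was 0.81. In FeO 1, which had the highest index, the proximal tubule marker sum was 1940 CPM, and in FeO 2, which had the lowest index of the group, it was 5210 CPM, above every WT library. Of the 8 early genes, Slc2a2, Slc5a12 and Slc7a8 were below their lowest WT values in FeO 2, at 106, 155 and 141 CPM. Slc6a19, Slc7a7 and Slc7a9 were above their highest WT values there, at 427, 73.2 and 85.7 CPM. Slc5a2 and Slc22a8 lay within the WT range, at 91.9 and 128 CPM. The part of the cell types in the index was not tested.

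**Figure D3:**
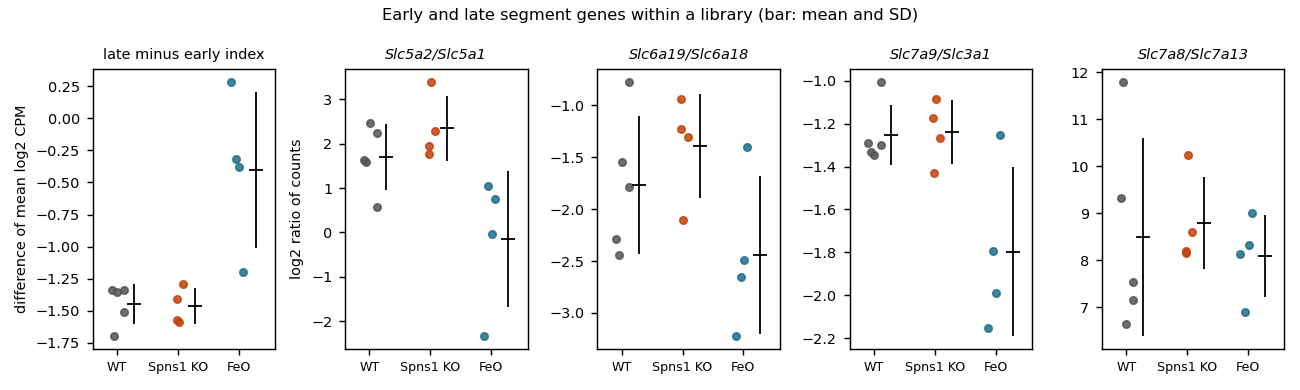
The late minus early index (first panel, difference of mean log2 CPM) and the log2 ratio of an early to a late gene for 4 pairs (other panels), with a point for each library and the mean and SD beside the points, in WT (n = 5), Spns1 KO (n = 4) and FeO (n = 4). The FeO index lies above WT in all 4 libraries, from -1.20 to 0.28, and FeO ratios of Slc5a2 to Slc5a1 reach down to -2.34, whereas Spns1 KO overlaps WT in each panel.

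Ratios of an early to a late gene were compared within each library in 4 pairs and 3 contrasts. The pairs were of glucose carriers, of neutral amino acid carriers, of the light and heavy chain of the cystine transporter, and of light chains. None of the 12 exact two-sided permutation tests passed after Benjamini-Hochberg adjustment. The log2 ratio of Slc5a2 to Slc5a1 was 1.94, 2.29, 1.76 and 3.39 in Spns1 KO, 2.47, 2.24, 1.63, 0.57 and 1.59 in WT, and -2.34, 0.76, -0.04 and 1.05 in FeO. The FeO mean differed from the WT mean by -1.84 (exact permutation p = 0.0317, adjusted p = 0.159, with 0.00794 the smallest p of this design). Spns1 KO exceeded FeO by 2.49 (exact p = 0.0286, adjusted p = 0.159, the smallest p that 4 against 4 libraries allow being 0.0286), and all 4 of its libraries lay above all 4 of FeO. The ratio of Slc7a9 to Slc3a1 was -1.25 ± 0.14 in WT (SD, n = 5), with -1.24 ± 0.15 for Spns1 KO (SD, n = 4) and -1.80 ± 0.39 for FeO (SD, n = 4). FeO differed from WT by -0.54 (exact p = 0.0397, adjusted p = 0.159), with 3 of 4 FeO libraries below every WT library. Slc6a19 to Slc6a18 gave -1.77 ± 0.66 in WT (SD, n = 5), with -1.40 ± 0.50 for Spns1 KO (SD, n = 4) and -2.44 ± 0.76 for FeO (SD, n = 4), with adjusted exact p from 0.171 to 0.533 over its 3 contrasts. Slc7a8 to Slc7a13 gave adjusted exact p from 0.533 to 0.897.

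**Figure D4:**
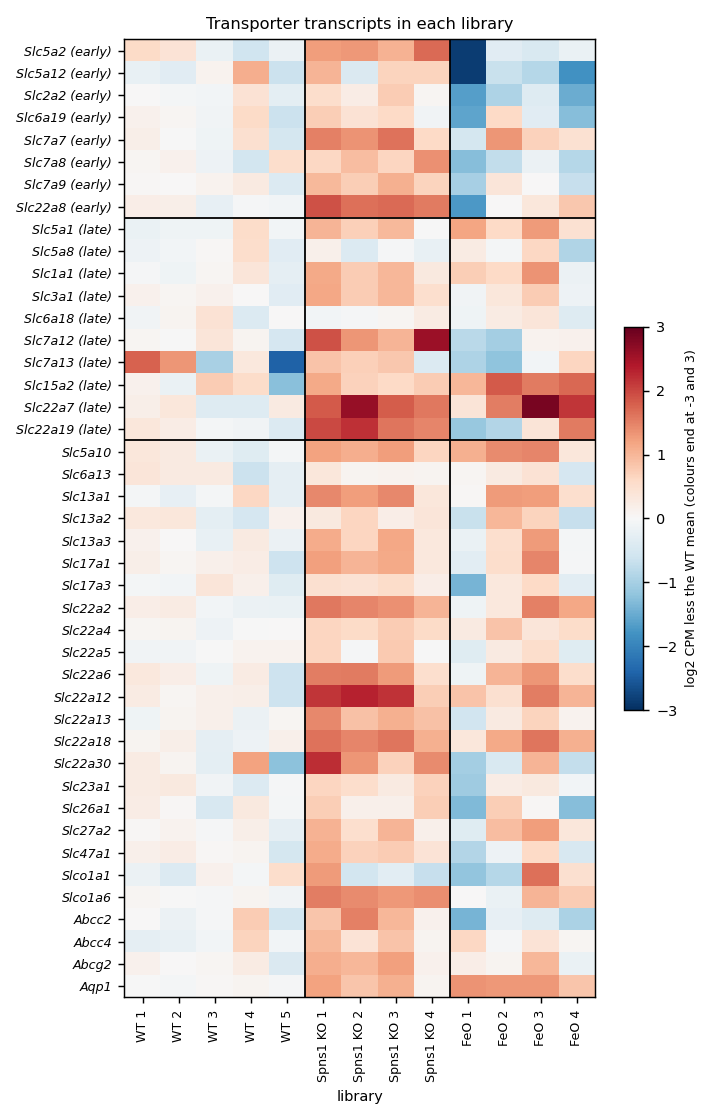
Log2 CPM of each of the 43 genes (rows, early genes first, then late, then the rest) in each of the 13 libraries (columns), less the WT mean of the gene, with red above and blue below that mean and colours ending at -3 and 3. The columns of Spns1 KO are mostly red, FeO 1 is blue over the early genes, and Slc22a7 is above its WT mean in every library of both models.

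Other genes of the same tubule were read from lists of partners, further carriers and transcription factors. Of 11 partner and scaffold genes, 5 were upregulated in Spns1 KO, next to 4 in FeO, with 0 downregulated. Among all genes, 14.0% and 22.4% were called higher in those models. Pdzk1ip1, whose product binds and activates the early glucose transporter, averaged 206 ± 45.2 CPM in Spns1 KO (SD, n = 4), 85.1 ± 18.7 in WT (SD, n = 5) and 236 ± 85.7 in FeO (SD, n = 4), a rise of 1.28 and 1.47 on the log2 scale (SE 0.24 and 0.24). Bsg, the chaperone of monocarboxylate transporters, rose by 0.94 and 0.89. Of 33 further carriers, 12 were upregulated and 1 downregulated in Spns1 KO, where 14.0% and 7.55% of all genes were called. In FeO, 6 were upregulated and 4 downregulated, where 22.4% and 19.7% of all genes were called. Those called in both models were Aqp7, a channel for water and glycerol, at 1.16 and 1.33, Slc16a4 at 1.43 and 0.72 and the inositol carrier Slc5a11 at 1.28 and 0.64. Of 8 transcription factors, 0 were called in Spns1 KO and 2 fell in FeO, where 19.7% of all genes were called lower. Ppara, the fatty acid-sensing nuclear receptor, averaged 259 ± 74.5 CPM in WT (SD, n = 5) and 40.5 ± 32.1 CPM in FeO (SD, n = 4), and Nr1h4, the bile acid receptor, averaged 240.1 ± 71.7 and 112 ± 73.6 CPM, with log2 fold changes of -2.68 and -1.11 (adjusted p = 0.000644 and 0.026).

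Calls differed in how far they rested on single libraries. Of the 24 Spns1 KO calls, 16 held whichever single library was omitted, among them Slc5a10, Slc7a7, Slc7a12, Slc3a1, Slc22a7, Slc22a8, Slc22a12 and Aqp1. The 8 that did not were Slc5a1, Slc5a2, Slc1a1, Slc7a8, Slc7a9, Slc13a3, Slc17a1 and Abcg2. Of the 15 FeO calls, 8 held, namely Slc5a1, Slc5a10, Slc5a12, Slc2a2, Slc15a2, Slc22a7, Slc22a18 and Aqp1. The other 7 were Slc7a8, Slc1a1, Slc13a1, Slc22a2, Slc22a4, Slc22a6 and Slc22a12, and FeO 3 was needed for 5 of them, all but Slc7a8 and Slc22a4. Of the 14 differences between the models, 10 held, with Slc5a2, Slc5a12, Slc2a2, Slc7a8, Slc7a9, Slc7a12, Slc22a8 and Abcc2 holding under all other settings too.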

How the data were processed

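RNA tagged with 4-thiouracil in mouse kidney was captured, poly-A selected and sequenced in pairs of 100 bases. The authors deposited estimated counts per gene symbol as whole numbers. The submitters' processing notes name bcl2fastq 2.19, kallisto 0.44.0, DESeq2 and GRCm38, whereas the study's methods name STAR and HTSeq, so which tool made the counts is unsure. Counts were fitted in edgeR 4.0.16 (R 4.3.3, quasi-likelihood test, TMM factors, filterByExpr) in a single model of all 13 libraries, with Benjamini-Hochberg adjustment over 16468 genes. CPM in the text uses those factors, and the index uses log2 CPM with a prior count of 2. Pair ratios use a pseudocount of 0.5. Gene positions are GRCm38. Values in every library are given for the segment pairs and for up to 6 called genes of largest log2 fold change per contrast and direction, at a mean count of at least 100. Companion genes are named where called in both models, and Hnf4a, Ppara, Nr1h4 and a few further values were added after they were seen. The members and lists were chosen with earlier results of these data known. Alternatives were DESeq2 1.42.0, other scaling, no filter, a replicate block, fits of the compared groups alone, a length and GC trend and omission of each library. Strand use in counting is not given in the sources used here, and 22 of the 43 genes overlap another annotated gene. Replicates differed beyond sampling noise and were counted separately. WT 1 and WT 2 were the most alike, at a chi-square per degree of freedom of 7.96. Other pairs within a group had 37.4 to 303. The fits were tested on simulated data, with 100 genes changed 2-fold and 100 changed 4-fold among 16288 or 16263 genes. Of 2-fold changes put in, 49% were called in Spns1 KO against WT and 42% in FeO against WT. Of 4-fold changes, 94% and 80% were called. A gene not called may therefore still have changed. Far more genes were called in the real data than were changed here, so these shares are not the sensitivity of the fits above. Some values are not reported here.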

Additional observations from a re-analysis of the deposited data

Results flagged for a closer look

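In 7 of 63 groups of 4 or 5 libraries, 1 library stood far from the rest by Dixon's ratio, where chance gives about 1 in 20. Slc5a2 measured 16.3 CPM in FeO 1 against 85.04 to 102 CPM in the other FeO libraries. Aqp1 measured 342 CPM in FeO 4 against 472 to 491 CPM. Slc22a12 measured 97.2 CPM in Spns1 KO 4 against 257 to 287 CPM, and 37.8 CPM in WT 5 against 60.9 to 68.9 CPM. Slc3a1 measured 127 CPM in WT 5 against 162 to 176 CPM, and Slc5a1 measured 52.3 CPM in WT 4 against 31.2 to 33.9 CPM. Slc7a13 measured 0.495 CPM in Spns1 KO 4 against 1.14 to 1.27 CPM, at few counts.

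The change in Spns1 KO differed from the change in FeO for 14 genes in the edgeR contrast of both models. WT means cancel in that contrast, but the WT libraries still enter its estimate of the spread. Calls of Slc22a12, Slc22a30 and Slc47a1 were lost when WT 1, WT 2 or WT 3 was left out. Among early genes the log2 difference was 2.00 for Slc5a2, 1.90 for Slc5a12, 1.43 for Slc2a2, 1.63 for Slc7a8, 1.10 for Slc7a9 and 1.59 for Slc22a8. Among late genes it was 2.14 for Slc7a12 and 1.46 for Slc22a19. Of the remaining anion and cation transporters it was 1.63 for Abcc2, 1.60 for Slc22a30, 0.94 for Slc22a12, 0.92 for Slco1a6, 0.90 for Slc22a13 and 0.88 for Slc47a1.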

How the results depend on the processing

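Upregulated genes in Spns1 KO numbered 23 to 29 under 6 other settings and 16 under a replicate block, with 0 downregulated in each. The replicate block gave 8 upregulated and 3 downregulated genes in FeO (with Abcc2 in place of Slc7a8) and 11 higher in Spns1 KO than in FeO, and replicate numbers did not pair the libraries, with deviations correlating from -0.296 to 0.256. Fitting only the 2 groups compared left 8 genes higher in Spns1 KO than in FeO. Omitting a library gave 17 to 29 upregulated genes in Spns1 KO, 7 (without FeO 3) to 14 in FeO, and 0 to 1 (without WT 5) lower in Spns1 KO than in FeO. The FeO index difference was 1.81 as a median over genes and 0.81 (without FeO 1) to 1.31 (without FeO 2) when libraries were omitted. Over such omissions the ratio difference of Slc7a9 to Slc3a1 in Spns1 KO ranged from -0.036 to 0.079, that of Slc7a8 to Slc7a13 from -0.17 to 1.14 in Spns1 KO and -0.86 to 0.43 in FeO. The sign of uncalled fold changes turned for Slc22a8 in FeO with the block (-0.0043), Slc3a1 in FeO with the trend removed (-0.023), and Slc6a18 with library totals alone (-0.11 in Spns1 KO, -0.050 in FeO) and between models with the block (0.037) and the trend removed (0.012). The causes were not tested.

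Omitting libraries moved the fold change of Slc22a19 in FeO from -0.39 to 0.66, Slc22a30 in FeO from -0.95 to 0.15, Slc22a8 in FeO from -0.20 to 0.44, Slc6a18 in FeO from -0.093 to 0.18, Slc6a18 in Spns1 KO from -0.048 to 0.16, Slc7a13 in Spns1 KO from -0.37 to 0.43, Slc22a7 between models from -0.25 to 0.49, Slc5a10 between models from -0.26 to 0.063 and Slc6a18 between models from -0.13 to 0.12.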
